A study of Mus musculus with 2 samples.

Results

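Macrophages clear dying cells, lipoproteins and glycoproteins through a set of surface receptors, and 7 of these receptor genes are described here: Mrc1, Cd163, Stab1, Msr1, Folr2, Mertk and Axl. They were chosen by symbol, for their role, and all 7 of 7 were found among the 12584 genes of the count matrix. Their levels were read in leukocytes (live CD45+ cells isolated by flow cytometry) of subcutaneous YUMM3.3 melanomas, grown in C57BL/6 mice and collected on day 12 after injection according to the series record. The line carries an activating Braf mutation and lacks Cdkn2a in both groups. NTT tumours grew from cells that had not met targeted therapy, and RTT tumours grew from a derivative with acquired resistance to it, which was kept in the BRAF inhibitor dabrafenib in culture, while neither the age of the mice nor treatment of the mice is given in the labels. Each group held 1 tumour and 1 library, so that line, animal and library cannot be told apart, no spread between mice can be given and no test was run.

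Mrc1 (CD206) is a C-type lectin that takes up mannosylated glycoproteins and collagen. Cd163 takes up haptoglobin-haemoglobin complexes, Stab1 is a multidomain receptor that clears acetylated lipoprotein, the matrix protein SPARC and apoptotic cells, and Msr1 is the class A scavenger receptor for modified lipoprotein. Folr2 encodes a folate receptor that marks tissue-resident macrophages. Mertk and Axl, with Tyro3, form the TAM family of receptor tyrosine kinases, which bind phosphatidylserine on dying cells through the bridging proteins Gas6 and Pros1. Mertk serves clearance in resting macrophages, and Axl is known as an interferon-inducible gene. In tumours these genes are commonly used to describe macrophages that remove debris and dampen inflammation.

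Gene positions on mm10 (GRCm38) were read from GENCODE. Mrc1 lies on chr2:14229392-14332057 (plus strand) and holds the microRNA gene Mir511. Cd163 lies on chr6:124304656-124330527 (plus strand), Stab1 on chr14:31139013-31168641 (minus strand), Msr1 on chr8:39581685-39642673 (minus strand), Folr2 on chr7:101839988-101857194 (minus strand), Mertk on chr2:128698956-128802894 (plus strand) and Axl on chr7:25757273-25788705 (minus strand). Stab1 overlaps Nt5dc2 on the opposite strand, and Nt5dc2 is also in the matrix.

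RefSeq promoter sequences (GRCm38.p6) were found for 6 of the 7 genes, with 2 starts for Folr2, and none was found for Msr1. The 250 bases before the start are shown for Mrc1, Stab1 and Folr2, which were higher in RTT in sums over all cells, and for Cd163 and Axl, which were lower. Directions within single populations differed for Mrc1 and Axl and are given below. Capitals mark the letters GAGGAA of a PU.1 box and TGCTGA of a MAF site, on either strand; PU.1 and MAF factors are regulators of macrophage genes.

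Mrc1, chr2:14229164-14229413 (plus strand): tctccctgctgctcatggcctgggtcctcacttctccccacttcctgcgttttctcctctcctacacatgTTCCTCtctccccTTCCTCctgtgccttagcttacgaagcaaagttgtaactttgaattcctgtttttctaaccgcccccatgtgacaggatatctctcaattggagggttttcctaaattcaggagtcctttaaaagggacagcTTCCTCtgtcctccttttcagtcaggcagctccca

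Stab1, chr14:31168642-31168891 (minus strand): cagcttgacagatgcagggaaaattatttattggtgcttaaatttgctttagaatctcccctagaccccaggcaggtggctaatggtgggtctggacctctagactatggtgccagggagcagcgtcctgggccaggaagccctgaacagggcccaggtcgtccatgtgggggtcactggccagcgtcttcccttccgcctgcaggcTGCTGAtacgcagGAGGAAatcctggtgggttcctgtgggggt

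Folr2 outer start, chr7:101857191-101857440 (minus strand): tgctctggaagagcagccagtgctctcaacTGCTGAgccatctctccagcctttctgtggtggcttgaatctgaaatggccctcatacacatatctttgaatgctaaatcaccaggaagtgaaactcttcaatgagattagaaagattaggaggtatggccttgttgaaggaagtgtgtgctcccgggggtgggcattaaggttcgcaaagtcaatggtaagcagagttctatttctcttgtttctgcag

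Folr2 inner start, chr7:101845332-101845581 (minus strand): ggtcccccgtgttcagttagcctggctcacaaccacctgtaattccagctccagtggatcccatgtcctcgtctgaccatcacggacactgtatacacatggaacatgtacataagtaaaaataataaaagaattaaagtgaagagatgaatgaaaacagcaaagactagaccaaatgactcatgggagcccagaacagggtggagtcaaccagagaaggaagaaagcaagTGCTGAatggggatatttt

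Cd163, chr6:124304401-124304650 (plus strand): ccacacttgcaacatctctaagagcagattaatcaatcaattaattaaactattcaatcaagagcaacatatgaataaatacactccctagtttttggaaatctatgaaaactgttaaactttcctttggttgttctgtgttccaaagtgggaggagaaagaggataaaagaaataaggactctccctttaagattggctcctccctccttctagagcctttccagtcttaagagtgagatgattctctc

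Axl, chr7:25788734-25788983 (minus strand): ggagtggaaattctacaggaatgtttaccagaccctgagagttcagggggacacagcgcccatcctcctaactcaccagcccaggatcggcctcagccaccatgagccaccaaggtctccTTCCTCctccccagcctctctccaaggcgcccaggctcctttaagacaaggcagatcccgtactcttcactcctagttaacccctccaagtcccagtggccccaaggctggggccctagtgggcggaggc

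The PU.1 letters were found 3 times before Mrc1, always on the reverse strand, once before Axl on the reverse strand and once before Stab1, and they were found in 23.3% of 32851 promoter windows of this length. The MAF letters were found once before Stab1 and once before each start of Folr2, and in 16.1% of all windows. The windows of Cd163 and Mertk held neither. The letters of an interferon response element, GAAA repeated with any pair of bases between, a motif that 2.98% of windows hold, were in none of the 7 windows. A match describes the letters only, and binding was not measured.

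The NTT library held 2975 cells and 19634099 UMIs (unique molecular identifiers, 1 per captured transcript), against 4840 cells and 44712071 UMIs in the RTT library, with medians of 5398 and 8336 UMIs per cell. The authors named 16 populations. Monocytes here are Monocyte_1, Monocyte_3 and Infl_Mono (1615 NTT and 199 RTT cells), macrophages are Macro, Ctsk_Macro and the TAM populations TAM_C1q, TAM_cycling, TAM_H2Ab1 and TAM_Spp1 (582 and 4009 cells), and dendritic cells are cDC1, cDC2 and DC3 (492 and 526 cells). All 7 macrophage markers had UMIs in every population of 50 cells or more, NK_cells and dendritic cells included, so that the names were set beside the summed levels of the markers. Macrophage markers summed to between 7734 CPM (NTT TAM_Spp1) and 52712.5 CPM (RTT TAM_C1q) in macrophage populations of 50 cells or more, and to between 356 and 5026 CPM in NK_cells and dendritic cells. The monocyte names did not follow the markers throughout: 68.2% of NTT Monocyte_1 cells had at least 5 UMIs over C1qa, C1qb and C1qc. NTT Monocyte_1 held 18504 CPM of macrophage and 9998 CPM of monocyte markers, while NTT Infl_Mono held 8142 and 15603 CPM. The monocyte sum covers 5 of 6 markers, since Ly6c2 was not in the matrix. Sums of different lists are not on one scale, so each is read between populations only. The osteoclast markers summed to 48651 CPM in Ctsk_Macro, and DC3 carried the markers of mature dendritic cells at 6053 CPM (NTT) and 8253 CPM (RTT). Levels are UMIs scaled to the population's total (CPM), their 95% intervals are exact Poisson intervals, and log2 ratios are RTT over NTT with an exact binomial interval of the pair of counts. All intervals cover counting error only. A gene counts as 2-fold higher or lower at a log2 ratio of 1, given at least 500 UMIs over all cells or 200 within a class or population.

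Over all CD45+ cells, RTT tumours held more transcripts of Stab1, Folr2 and Mrc1 and fewer of Cd163 and Axl. Stab1 stood at 31.9 CPM in NTT cells and at 434 CPM in RTT cells (log2 ratio 3.77, interval 3.65 to 3.88). Folr2 stood at 46.1 and 226 CPM (2.29, 2.19 to 2.39), and Mrc1 at 448 and 1019 CPM (1.18, 1.15 to 1.22). These 3 genes were past the 2-fold limit upwards, which 8.18% of 8220 genes were over all cells. Cd163 went the other way, from 37.6 to 13.3 CPM (2.83-fold lower, interval of the log2 ratio -1.66 to -1.34), as did Axl, from 121 to 53.4 CPM (-1.18, -1.27 to -1.10). These 2 genes were past the limit downwards, against 9.6% of all genes. Msr1 was at 377 and 418 CPM (0.15, 0.11 to 0.19, and -0.02 with cells thinned to 2000 UMIs) and Mertk at 15.3 and 25.5 CPM (0.73, 0.55 to 0.92). The median log2 ratio of the 7 genes was 0.73, beside 0.10 over all genes tested. In sums over a whole library, more cells of a type and more RNA per cell cannot be told apart.

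The cells that held these transcripts differed between the libraries. In the NTT library monocytes held 66.0% of the Msr1 UMIs, 60.9% of Axl, 53.2% of Mertk and 29.0% of Mrc1. In the RTT library monocytes held 0.875% (Stab1) to 5.73% (Axl) of any of these genes' UMIs, and Cd163 had 0 UMIs there. RTT macrophages held between 87.8% (Axl) and 98.99% (Cd163) of the UMIs of each gene. Monocytes made up most of the NTT cells and macrophages most of the RTT cells, so that each gene's difference over all cells was split into a part from the populations' shares of UMIs and a part from levels within populations, by mean weights.

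For Mrc1 the difference of 571 CPM was 799.8 CPM from shares and -229 CPM from levels. Weighted by NTT shares, its part from shares was 95.9%, and weighted by RTT shares 184%, so that the sign of the part from levels turned with the weights. For Stab1 the 402 CPM came to 51.7% from shares (70.9% with NTT and 32.5% with RTT shares as weights), with 194 CPM from higher levels within populations. For Folr2 85.9% of 179.99 CPM came from shares (69.7% and 102%), so that the sign of its part from levels also turned with the weights. For Axl 58.9% of the difference of -67.99 CPM came from shares (42.2% and 75.6%). For Cd163 the shares alone would have raised the level by 84.3 CPM, while the levels within populations lowered it by 109 CPM. The Msr1 difference of 41.1 CPM was the balance of 107 CPM from shares and -65.6 CPM from levels, and that of Mertk, 10.2 CPM, was 26.8% from shares. These parts rest on NTT TAM_C1q levels from 17 cells, and the share part of Mertk was -18.3% with RTT shares as weights. Ctsk_Macro had 0 NTT cells, so its RTT levels stood for both libraries and its whole contribution lies in the part from shares.

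**Figure D1:**
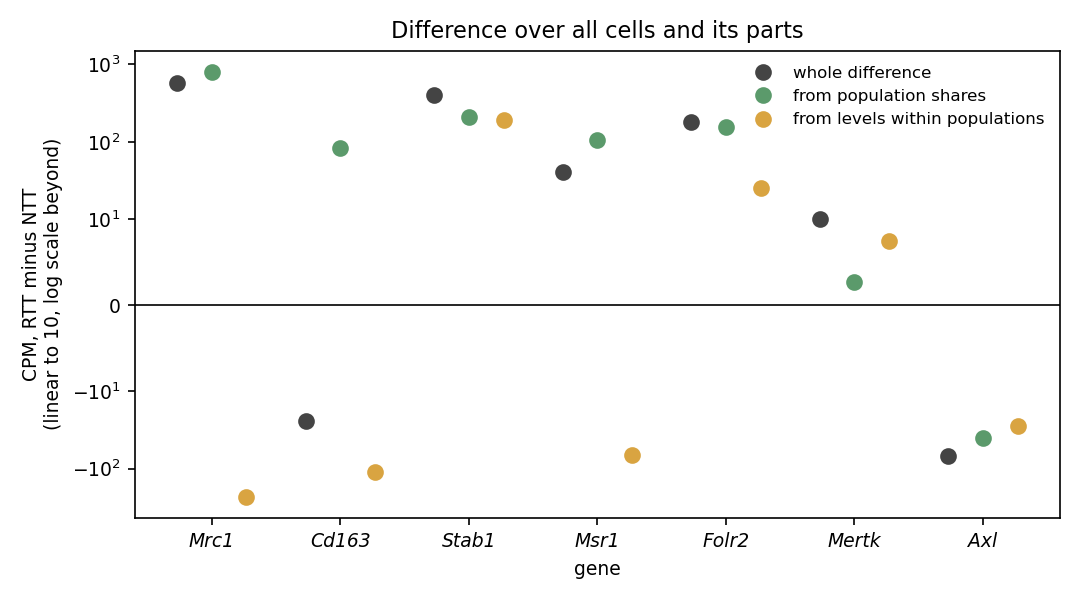
The horizontal axis lists the 7 genes, and the vertical axis shows CPM in RTT minus NTT, linear up to 10 and logarithmic beyond. Black points are the whole difference over all cells, green points the part from population shares and yellow points the part from levels within populations; both parts use mean weights. For Mrc1, Cd163 and Msr1 the green and yellow points lie on opposite sides of 0, while for Stab1 both lie above 0 (208 and 194 CPM).

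Mrc1 was highest in a macrophage population in each library, but not every macrophage population stood above the monocytes. NTT Macro was far above the other NTT populations of at least 50 cells. Rankings of this gene and the genes below are limited to populations of that size. NTT TAM_C1q, 17 cells, held 3112 CPM of Mrc1. NTT Macro, 100 cells, held 4217 CPM (4066 to 4373), 4.69 times NTT TAM_Spp1 at 899 CPM. NTT TAM_H2Ab1 followed at 458 CPM, TAM_cycling at 372, Monocyte_1 at 355 and Infl_Mono at 201. The intervals of TAM_cycling and Monocyte_1 overlapped, and the others named stood apart from the next. In the RTT library TAM_C1q, 2001 cells, was highest at 1489.6 CPM (1472 to 1507), then TAM_cycling at 1156, Infl_Mono at 629.99 and TAM_Spp1 at 520.2 CPM, each apart from the next. Ctsk_Macro, 280 RTT cells of osteoclast-like expression, held 94.6 CPM, under the 142 CPM of RTT cDC2. After each cell was thinned to 2000 UMIs, 92.8% of NTT Macro cells (85.7 to 97.0) and 80.7% of RTT TAM_C1q cells (78.8 to 82.4) had an Mrc1 UMI, as did 8.27% of Ctsk_Macro cells.

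Over all cells Stab1 had the largest log2 ratio of the 7 genes. Among NTT populations of 50 cells or more it was low outside Macro (333 CPM, 291 to 378). TAM_Spp1 held 55.4, TAM_H2Ab1 43.1, TAM_cycling 29.0, Monocyte_1 17.0 and Infl_Mono 11.5 CPM. The 17 NTT TAM_C1q cells held 349.8 CPM. In the RTT library every macrophage population of 50 cells or more except Ctsk_Macro (49.2 CPM) was above 150 CPM, with TAM_C1q at 663 (651 to 675), TAM_cycling at 494 and TAM_Spp1 at 156 CPM. At 2000 UMIs per cell, 58.4% of RTT TAM_C1q and 48.2% of RTT TAM_cycling cells had a Stab1 UMI, and 4.85% of NTT TAM_cycling cells (1.59 to 10.97). The share in NTT Macro was 25.8%.

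Folr2 was led by the same populations as Mrc1. NTT Macro held 808 CPM (743 to 878), 17.6 times the next NTT population of 50 cells or more, TAM_H2Ab1 at 45.8 CPM. The interval of TAM_H2Ab1 overlapped that of TAM_Spp1 at 43.8. The 17 NTT TAM_C1q cells held 510.1 CPM. RTT TAM_C1q held 383 CPM (374 to 392), followed by TAM_cycling at 198 and Infl_Mono at 188, which did not differ beyond counting error. RTT TAM_Spp1 was low, at 31.2 CPM, although its Stab1 and Mrc1 levels were not. A Folr2 UMI was found in 49.5% of NTT Macro, 42.8% of RTT TAM_C1q, 25.2% of RTT TAM_cycling and 2.99% of RTT TAM_Spp1 cells at 2000 UMIs per cell.

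Most Cd163 UMIs lay in Macro in the NTT library and in TAM_C1q in the RTT library. Of its 739 NTT UMIs, 604 (81.7%) lay in the 100 Macro cells, at 869.9 CPM (802 to 942) and with a UMI in 38.1% of those cells at 2000 UMIs. The next NTT population, TAM_Spp1, held 22.4 CPM, but 95.7% of its 23 UMIs came from 1 cell. In the RTT library TAM_C1q held 476 of 595 UMIs, at 26.1 CPM (23.8 to 28.6), and 2.71% of its cells had a UMI. RTT TAM_cycling held 6.24 CPM, and Monocyte_1 and Infl_Mono held 0 UMIs. A limit of 3 counts allows a UMI in up to 3.06% and 3.26% of their thinned cells (Clopper-Pearson limits 3.69% and 3.93%), which does not limit the share of cells that express the gene.

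Msr1 was found in monocytes and macrophages alike. NTT TAM_Spp1 held 675 CPM (626 to 727), Monocyte_1 592 (572 to 613), Infl_Mono 528 (503 to 554) and TAM_H2Ab1 355 CPM. RTT TAM_Spp1 and TAM_C1q were at 545 and 541 CPM and Infl_Mono at 486 CPM, with overlapping intervals. NTT neutrophils held 232 CPM, above all dendritic cell populations (16.8 to 74.2 CPM). Of these 91 cells 20.9% had at least 5 C1q UMIs, and their macrophage markers summed to 5601 CPM, so that C1q-positive cells are part of this level. A UMI was found in 62.9% of NTT Monocyte_1 and 58.7% of RTT TAM_C1q cells.

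Mertk and Axl differed in their leading populations but shared others. Mertk counts were low, and its highest levels were 48.97 CPM in NTT Macro (34 UMIs, 33.9 to 68.4) and, in the RTT library, 40.8 CPM in Infl_Mono (24 UMIs) and 36.6 CPM in TAM_C1q (668 UMIs), which overlapped. All 24 UMIs of RTT Infl_Mono lay in the 48 cells with at least 5 C1q UMIs (58.8 CPM), 1 cell held 20.8% of them, and the 46 other cells held 0 UMIs (0 to 20.4 CPM). It had 0 UMIs in NK_cells of both libraries. Axl was highest in NTT TAM_H2Ab1, Infl_Mono, Monocyte_1 and TAM_cycling, at 189.6, 182, 162 and 145 CPM, of which neighbours did not differ beyond counting error. NTT Macro, the leading population for Mrc1, Cd163, Stab1, Folr2 and Mertk, held 41.8 CPM of Axl. Among RTT populations of that size Axl was highest in Monocyte_1 and Infl_Mono at 124 and 121 CPM, and TAM_C1q, with 42.4 CPM, was among the lower populations. Axl was found in 35.5% of NTT TAM_H2Ab1 and 7.22% of RTT TAM_C1q cells. Tyro3, the other kinase of this family, had 0 UMIs in NTT and 2 UMIs in RTT macrophages.

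**Figure D2:**
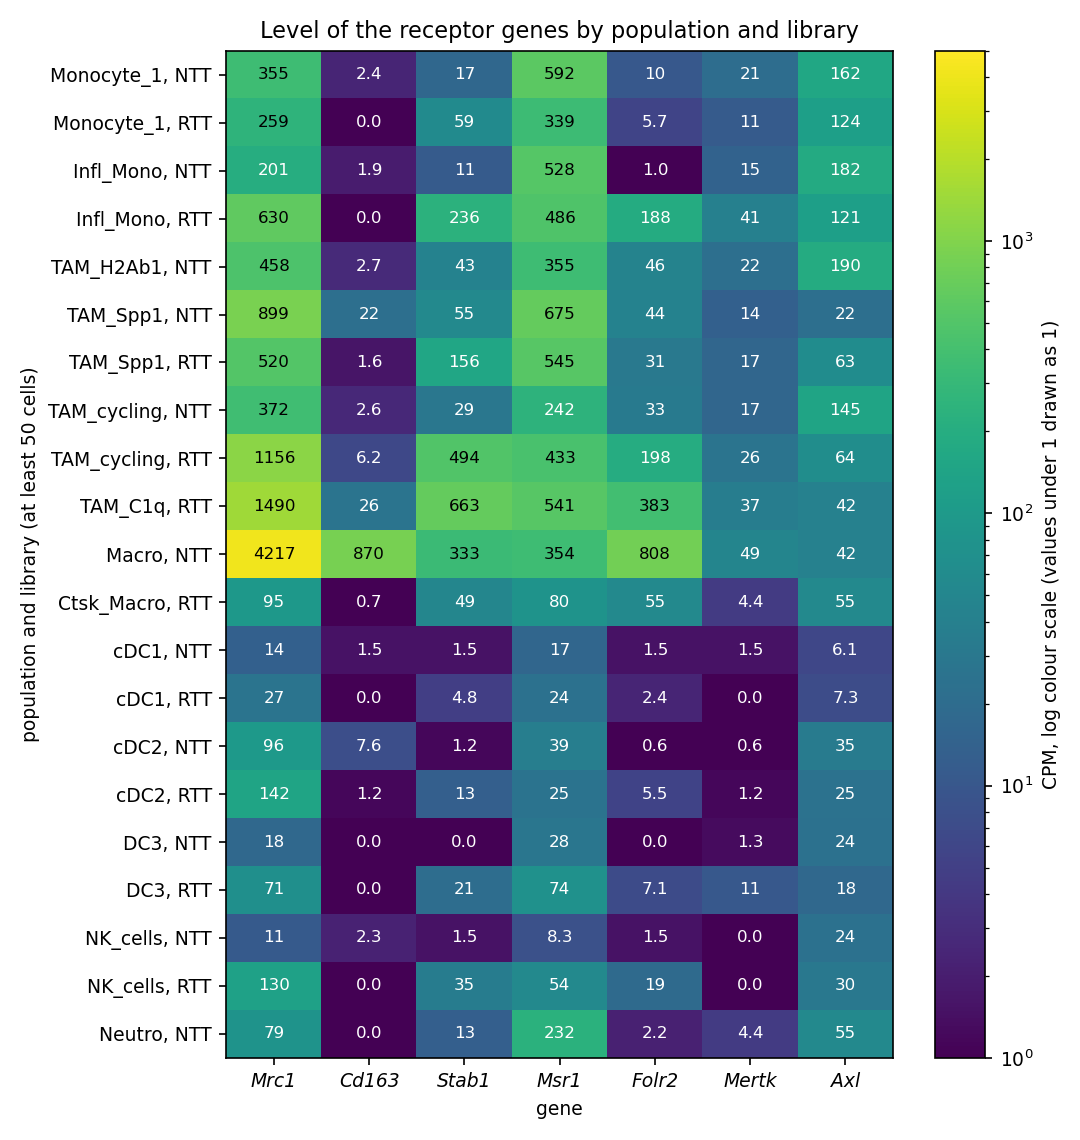
Rows are the populations with at least 50 cells in a library, columns are the 7 genes, and each field gives the level in CPM on a log colour scale. The brightest fields of Mrc1, Cd163 and Folr2 lie in NTT Macro (4217, 870 and 808 CPM), those of Stab1 in RTT TAM_C1q and TAM_cycling, and those of Axl in NTT monocytes and TAM_H2Ab1.

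Cells that should lack these genes give the background of free or attached RNA. In NTT NK_cells (178 cells, median 5359 UMIs) Mrc1 stood at 11.3, Msr1 at 8.29, and Stab1 and Folr2 at 1.51 CPM each. In RTT NK_cells (51 cells, median 3967 UMIs) Mrc1 stood at 130.2, Msr1 at 54.2, Stab1 at 35.3 and Folr2 at 18.99 CPM. At 2000 UMIs per cell, 2.44% of NTT and 4.88% of RTT NK_cells had an Mrc1 UMI, and 0.61% and 2.44% a Stab1 UMI. The summed macrophage markers moved with them, from 356 CPM in NTT to 3559 CPM in RTT NK_cells. One cell held 39.6% of the Mrc1 and 46.2% of the Stab1 UMIs of the RTT NK_cells. RTT cDC2 held 142 CPM of Mrc1, within the interval of the RTT NK_cells level (95.99 to 173 CPM), while the share of cells with a UMI at 2000 UMIs was 17.3% (13.8 to 21.4) in cDC2 and 4.88% (0.596 to 16.5) in NK_cells. The level and the share of cells thus differed in their reading, and the Mrc1 level of RTT cDC2 is called neither background nor expression. RTT DC3 held 6 Stab1 UMIs, too few to be read. NTT cDC2 held 96.1 CPM of Mrc1 (81.99 to 112), above the NTT NK_cells (6.33 to 18.6). Axl stood at 24.1 CPM (16.5 to 34.05) in NTT and 29.8 CPM in RTT NK_cells, in the NTT library above Mrc1 in the same cells, so that its NK_cells level was not used as a background. In dendritic cells Axl ranged from 6.12 to 34.6 CPM, with the highest level in NTT cDC2 (26.3 to 44.6).

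Within macrophages as a class, RTT cells held more Stab1 and less Cd163 and Axl. Stab1 was at 81.5 CPM in NTT macrophages and 484 CPM in RTT ones (log2 ratio 2.57, 2.44 to 2.70), the only one of the 7 genes past the limit upwards, which 4.61% of 8888 genes were. Cd163 was at 118 and 14.96 CPM (-2.98, -3.14 to -2.82) and Axl at 126 and 53.3 CPM (-1.24, -1.36 to -1.12), the 2 genes past it downwards, which 6.18% of genes were. Folr2 was at 141 and 251 CPM (0.84, 0.73 to 0.94), Msr1 at 384 and 457 (0.25), Mertk at 21.97 and 27.7 (0.33) and Mrc1 at 1005 and 1124 CPM (0.16, 0.12 to 0.20). The median of the 7 was 0.25, beside 0.06 over all genes. The class was made of different populations in the libraries, with 17 NTT and 2001 RTT cells of TAM_C1q, 169 and 36 of TAM_H2Ab1, and 0 and 280 of Ctsk_Macro, so that its ratios hold shifts between populations as well as levels within them.

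One NTT population decided several of these values. Without the 100 NTT and 26 RTT cells of Macro, left out after the levels had been seen, the log2 ratio of Cd163 was -0.39, that of Folr2 2.24, that of Stab1 3.33 and that of Mrc1 0.95. Cd163 was then no longer 2-fold lower, and Folr2 was 2-fold higher. Without TAM_cycling the ratio of Mrc1 was -0.23, and it was also below 0 as a mean over cells (-0.29) or with cells thinned to 2000 UMIs (-0.22), so that no direction is given for Mrc1 in macrophages. Axl was -0.88 as a mean over cells.

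TAM_cycling, macrophages with cell cycle genes, held genes past the limit in both directions (103 NTT and 947 RTT cells). Of the 6 genes with enough UMIs, 3 were past the limit upwards, which 4.78% of 6865 genes were, and 1 downwards, which 4.34% were. Stab1 stood at 29.0 in NTT and 494 CPM in RTT cells (4.09, 3.71 to 4.50), Folr2 at 33.2 and 198 CPM (2.58, 2.22 to 2.96) and Mrc1 at 372 and 1156 CPM (1.64, 1.53 to 1.75). Axl stood at 145 and 64.3 CPM (-1.18, -1.38 to -0.97). Msr1 and Mertk were at 0.84 (0.70 to 0.98) and 0.63 (0.10 to 1.20). The share of cells with an Mrc1 UMI at 2000 UMIs was 39.8% in NTT and 77.3% in RTT TAM_cycling. One NTT cell held 22.2% of the Folr2 and 18.2% of the Stab1 UMIs there. Cells of this name also differed in other markers between the libraries. Osteoclast markers summed to 1257 CPM in NTT and 134 CPM in RTT TAM_cycling. They summed to 1359 CPM in NTT TAM_H2Ab1 and 174 CPM in RTT TAM_C1q. The ratios in TAM_cycling can thus hold a different make-up as well as different levels, and the part of each was not tested.

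TAM_Spp1, macrophages named for the osteopontin gene, had another pattern (193 NTT and 719 RTT cells). Axl stood at 22.4 and 63.3 CPM (2.83-fold higher in RTT cells, interval of the log2 ratio 0.89 to 2.18), the reverse of its direction in TAM_cycling, and Stab1 at 55.4 and 156 CPM (2.82-fold, 1.11 to 1.91). Of 4 genes with enough UMIs these 2 were past the limit upwards and 0 downwards, beside 12.2% and 12.5% of 3889 genes, so a shift of this size was frequent there. Mrc1 was lower in RTT cells by CPM, 899 and 520.2 (-0.79, -0.90 to -0.68), while more cells had a UMI at 2000 UMIs, 36.1% and 48.2%. One NTT cell held 13.3% of those Mrc1 UMIs, and no direction is read from the 2 measures together. Msr1 was at -0.31 (-0.43 to -0.18). The summed macrophage markers also differed, 7734 CPM in NTT cells and 22140.3 CPM in RTT cells, and monocyte markers went the other way, with 7851 and 2769 CPM. NTT TAM_Spp1 thus held markers of both lists. The part of the markers in the differences of Axl, Stab1 and Mrc1 was not tested.

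TAM_C1q could be set side by side only, since 17 cells carried that name in the NTT library. Those cells held 3112 CPM of Mrc1, 474 of Cd163, 510.1 of Folr2 and 349.8 of Stab1, and RTT TAM_C1q cells held 1489.6, 26.1, 383 and 663 CPM. One NTT cell held 43.1% of the Cd163 UMIs of these 17 cells.

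**Figure D3:**
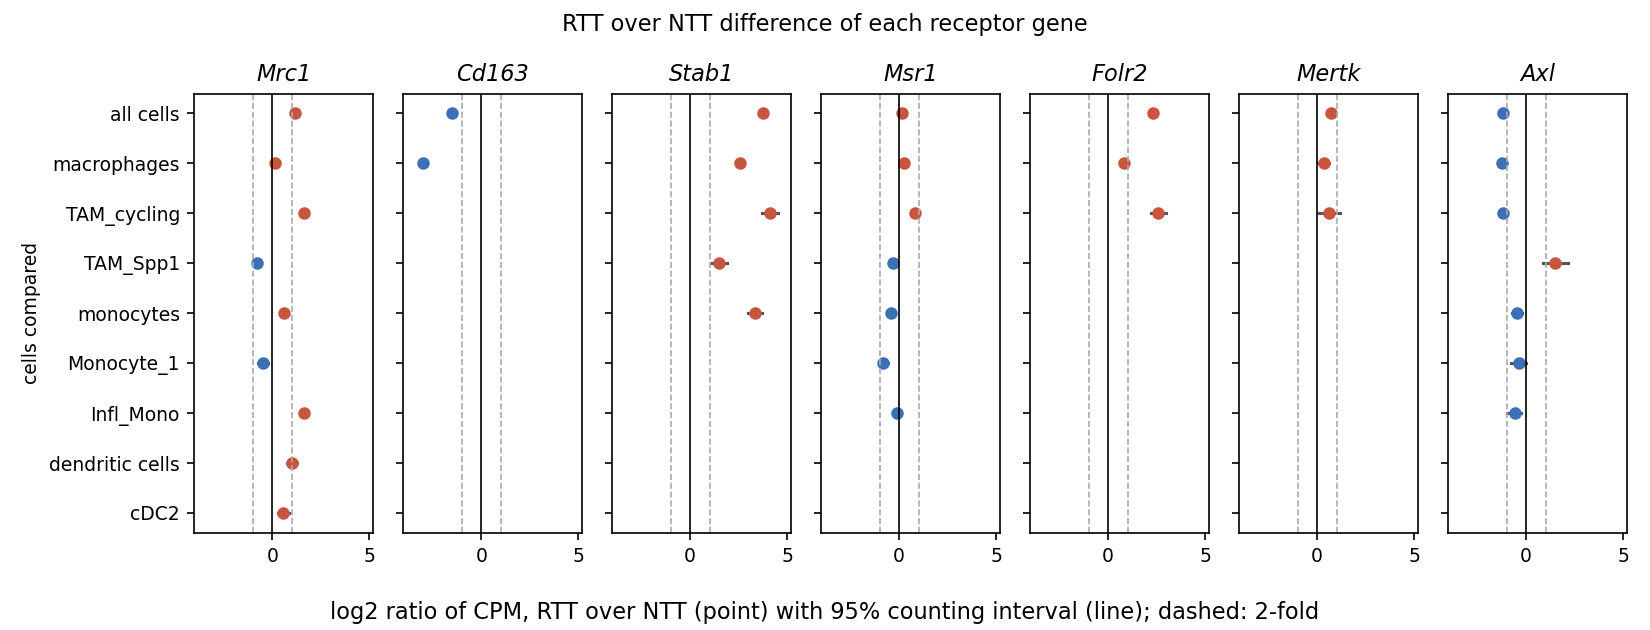
Each panel is 1 gene, the vertical axis lists the cells compared, and the horizontal axis is the log2 ratio of CPM, RTT over NTT, with its 95% counting interval as a line; values without enough UMIs are left blank and dashed lines mark the 2-fold limit. Stab1 lies to the right in every comparison drawn, whereas Mrc1, Msr1 and Axl lie on different sides of 0 in different populations.

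Among monocytes as a class, Stab1 and, from fewer UMIs, Folr2 stood higher in the RTT library. Infl_Mono held 139 of the 170 RTT Stab1 UMIs and 111 of the 115 RTT Folr2 UMIs. Stab1 stood at 14.9 CPM in 1615 NTT and 149.98 CPM in 199 RTT monocytes (3.33, 2.99 to 3.68), 1 of 4 genes with enough UMIs, where 2.97% of 5326 genes were as much higher and 6.74% as much lower. Mrc1 was at 297 and 447 CPM (0.59, 0.45 to 0.73), Msr1 at 568 and 417 (-0.44, -0.58 to -0.31) and Axl at 169 and 121 CPM (-0.48, -0.75 to -0.23). These 3 genes stayed within the 2-fold limit. Folr2, under the UMI minimum with 59 NTT and 115 RTT UMIs, stood at 6.86 and 101 CPM (3.89, 3.42 to 4.36), a larger ratio than that of Stab1 that is not in the count. Mertk, with 160 and 30 UMIs, was at 0.51 (-0.11 to 1.08), and Cd163 had 19 and 0 UMIs.

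Within single monocyte populations Stab1 had too few UMIs to be counted, with 92 NTT and 31 RTT UMIs in Monocyte_1 (1.80, 1.16 to 2.40) and 36 and 139 in Infl_Mono (4.37, 3.83 to 4.94), and Mrc1 went in opposite directions. RTT Monocyte_1 held 58.98 CPM of Stab1 (40.1 to 83.7), which overlapped RTT NK_cells at 35.3 CPM (18.8 to 60.3). The Stab1 level of RTT Monocyte_1 is thus called neither background nor expression. RTT Infl_Mono held 236 CPM (198 to 279). In Monocyte_1 (984 NTT and 99 RTT cells) 0 of 3 genes with enough UMIs were past the limit in either direction, beside 2.4% of 4002 genes higher and 9.87% lower. Mrc1 was at -0.46 (-0.72 to -0.20), Msr1 at -0.81 (-1.03 to -0.59) and Axl at -0.39 (-0.78 to -0.02). In Infl_Mono (620 NTT and 94 RTT cells) 1 of 3 was higher, Mrc1 with 201 and 629.99 CPM (1.65, 1.46 to 1.84), and 0 lower, beside 5.15% and 9.78% of 2914 genes. Folr2 had 3 NTT and 111 RTT UMIs in Infl_Mono (0.95 and 188 CPM). In Monocyte_1 it was not higher in RTT cells, with 56 NTT and 3 RTT UMIs (10.3 and 5.71 CPM, -0.86, -3.18 to 0.76).

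RTT Infl_Mono cells carried macrophage markers, whose sum was 8142 CPM in NTT cells and 34732 CPM in RTT cells. With the limit of 5 C1q UMIs, set after the values had been seen, 48 of the 94 RTT cells were C1q-positive. Those held 901 CPM of Mrc1, 323 of Stab1 and 269 of Folr2, and the 46 others held 16.6, 38.8 and 5.54 CPM, the last from 1 UMI. The Stab1 level of these 46 cells lay within the interval of RTT NK_cells (18.8 to 60.3 CPM). In NTT Infl_Mono the 425 cells under the limit held 162 CPM of Mrc1, 10.6 of Stab1 and 0.48 of Folr2 (1 UMI). Without such cells, monocytes (747 NTT and 96 RTT cells) had log2 ratios of -1.36 for Mrc1 and -1.68 for Axl, and Stab1, at 2.29, fell under the UMI minimum. Of the 29 RTT neutrophils, 15 were C1q-positive and held 1714 CPM of Mrc1 and 658 of Stab1, whereas the 14 others held 0 and 54.9 CPM.

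In dendritic cells Mrc1 alone had enough UMIs, at 59.4 CPM in NTT cells and 121 CPM in RTT cells (1.03, 0.78 to 1.29). It was 1 of 1 past the limit upwards, beside 4.83% of 4407 genes, with 7.56% lower. In cDC2 the ratio was 0.57. The RTT value lies within the interval of the RTT NK_cells level, to which 1 cell gave 39.6% of the UMIs. The ratio was under the limit without C1q-positive cells (0.74), under TMM scaling (0.97) and as a mean over cells (0.72).

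**Figure D4:**
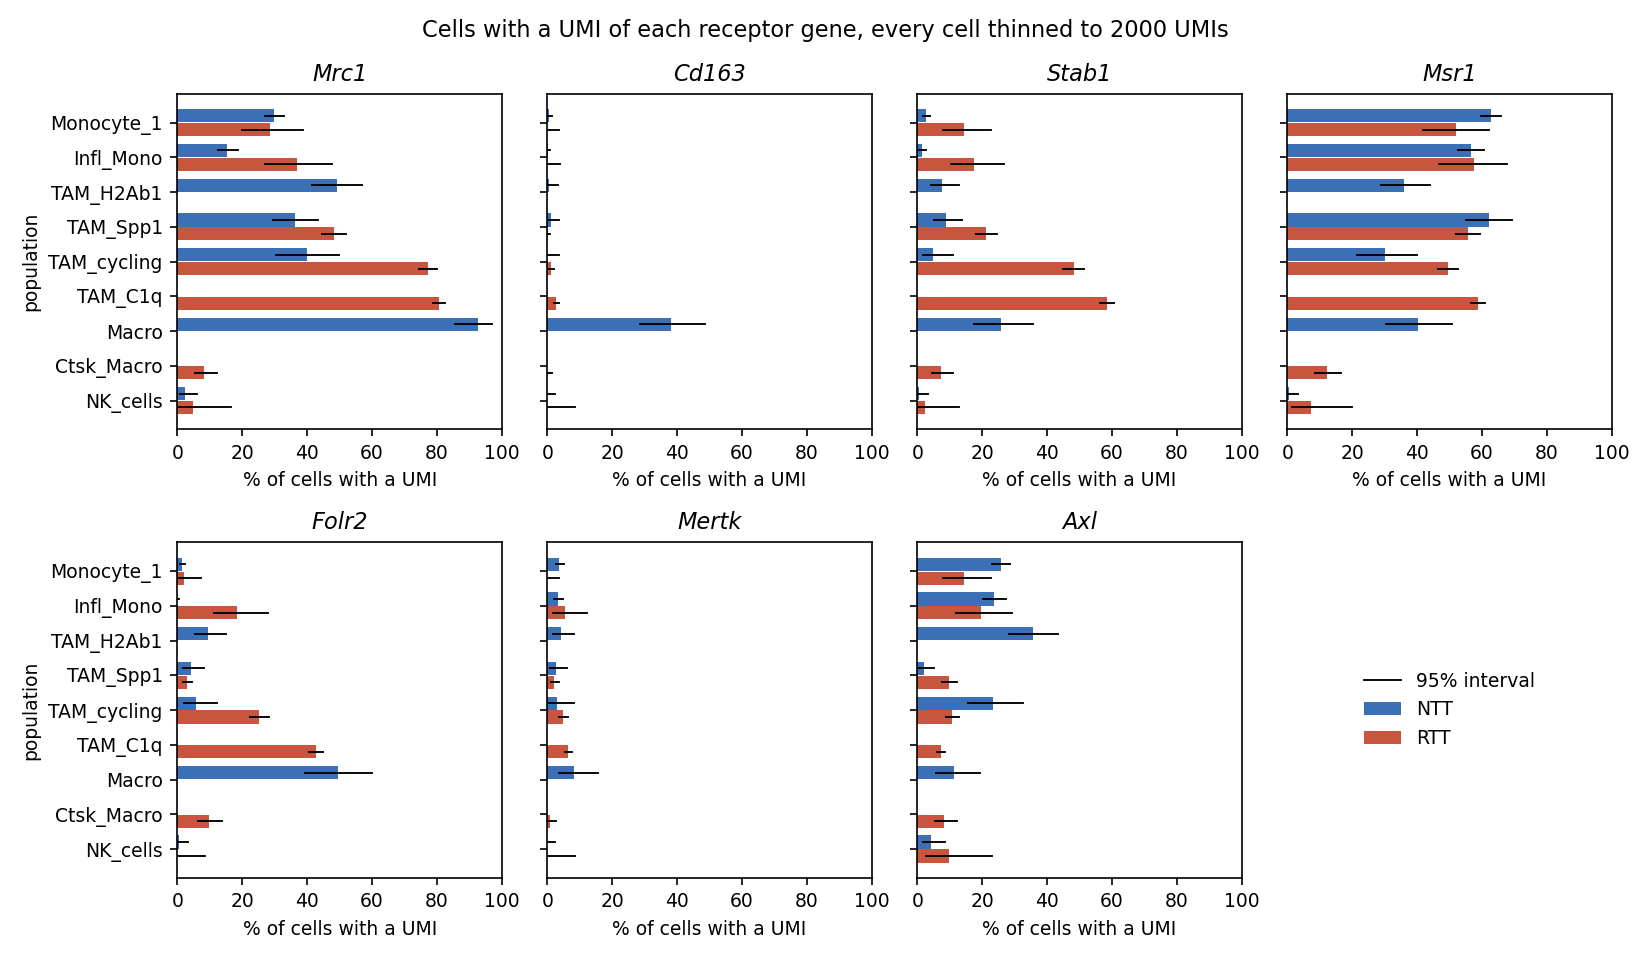
Each panel is 1 gene, the vertical axis lists populations and the horizontal axis is the percentage of cells with at least 1 UMI after every cell was thinned to 2000 UMIs, with 95% Clopper-Pearson intervals as lines; blue bars are NTT and red bars RTT, and a population with under 50 cells in a library has no bar there. Mrc1 and Stab1 bars are longer in RTT than in NTT TAM_cycling (77.3% against 39.8%, and 48.2% against 4.85%), Axl bars shorter (10.8% against 23.3%), and Cd163 has one long bar, NTT Macro.

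The 7 genes were also followed within single cells, each thinned to 2000 UMIs. RTT TAM_C1q cells held a UMI of 2.57 of the 7 genes on average, 54.4% of them held 3 or more and 3.56% held none. NTT Macro cells held 2.66 on average, RTT TAM_cycling 2.17, NTT TAM_cycling 1.07 and Ctsk_Macro 0.46, where 65.8% of cells held none.

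Stab1 and Folr2 went together. Among RTT TAM_C1q cells with a Stab1 UMI 50.4% (47.5 to 53.3) had a Folr2 UMI, and among those without one 32.1% (28.9 to 35.4). In RTT TAM_cycling the shares were 37.1% and 14.3%, and in NTT Macro 76.0% (54.9 to 90.6) and 40.3% (28.9 to 52.5), whose intervals overlapped. Cd163 followed Folr2 in NTT Macro: 66.7% of Folr2-positive cells (51.6 to 79.6) and 10.2% of negative cells (3.4 to 22.2) had a Cd163 UMI. Axl went against Folr2 in RTT TAM_C1q, where 3.51% of Folr2-positive (2.38 to 4.98) and 9.99% of Folr2-negative cells (8.31 to 11.9) had an Axl UMI. Between Mertk and Axl, receptors of one family, the shares did not stand apart, with Axl in 8.53% of Mertk-positive (4.33 to 14.7) and 7.13% of Mertk-negative cells.

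Across the 21 profiles of at least 50 cells (11 NTT and 10 RTT), the genes were compared by the Pearson correlation of log2(CPM + 10), a description, since profiles share libraries and depth. The highest value among the 7 was between Stab1 and Folr2 (0.92), followed by Mrc1 and Mertk (0.88). The lowest was between Axl and Cd163 (-0.06), and Axl was closest to Msr1 (0.71).

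Of 8219 other genes, those nearest to Folr2 were Gas6 (0.97), the bridging ligand of Mertk and Axl, Cbr2 (0.95), a carbonyl reductase, and Npl (0.94), a sialic acid lyase. Among the genes nearest to Msr1 were the IgG receptor gene Fcgr3 (0.96) and the dipeptidase gene Cndp2 (0.95). Mertk was nearest to Adgre1 (0.95), which encodes F4/80, Selenop (0.93), a selenium carrier, and the cathepsin gene Ctsb (0.93). Mrc1 was nearest to Nxpe5 (0.95), the metalloprotease gene Adam15 (0.95) and Selenop (0.94). Stab1 was nearest to the chemokine gene Pf4 (0.95), and Dhrs3 (0.93) was also among its nearest genes. Axl was nearest to Oas1g (0.89), a member of the interferon-induced oligoadenylate synthetase family, the lectin gene Clec4a3 (0.87) and Tmem171 (0.86). Cd163 was nearest to Igf1 (0.90), Gja1 (0.87) and Wwp1 (0.83), and its pattern rests on NTT Macro.

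The ligands of the TAM kinases differed from each other. Gas6 was at 64.6 CPM in NTT and 159.7 CPM in RTT macrophages (1.31, 1.16 to 1.46). Its levels within populations lay on both sides: TAM_cycling held 13.7 CPM (NTT) and 146 CPM (RTT), TAM_Spp1 12.6 and 22.5 CPM and TAM_C1q 182 (17 cells) and 236 CPM, whereas Macro held 324 and 229 CPM and TAM_H2Ab1 43.5 and 27.8 CPM, the intervals of these last 4 pairs overlapping. Pros1 was at 28.7 and 28.9 CPM in macrophages (0.01, -0.22 to 0.25). Adam17 and Adam10, proteases that shed Mertk and Axl from the surface, were at -0.31 (-0.41 to -0.21) and 0.03 (-0.08 to 0.15).

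Of 100 other genes of the pathway in 8 lists, 92 were in the matrix, and 73 had enough UMIs in macrophages, where 6 were 2-fold higher and 9 lower in RTT cells, beside 4.61% and 6.18% of all genes tested in that class. The counts of the single lists are read against the same shares, and the class ratios hold the shift between macrophage populations given above. Among bridging molecules and opsonins 3 of 9 were higher, Gas6, Mfge8 (2.66), a phosphatidylserine bridge to integrins, and its relative Edil3 (1.34), and 1 was lower, thrombospondin Thbs1 (814 and 89.3 CPM, -3.19). Among other apoptotic-cell receptors 2 of 10 were higher, the lipid receptor gene Trem2 (136 and 817 CPM, 2.59) and the integrin gene Itgb3 (2.11), and 1 lower, Cd300lf (-1.22). Of 8 other scavenger and endocytic receptors 0 were higher and 2 lower, the C-type lectins Cd209a (-2.15) and Clec10a (-1.49). Of 12 engulfment genes 1 was lower, Elmo2 (-1.57), of 9 phagosome maturation genes 0 were past the limit, and of 6 genes of shedding and inhibition 0. Among 10 genes of lipid handling, Apoe was higher (5697 and 13095 CPM, 1.20), and the cholesterol exporter Abcg1 (-2.38) and the oxysterol receptor Nr1h3 (64.2 and 19.7 CPM, -1.71) were lower. Nr1h3 stood at 76.9 CPM in NTT and 16.7 CPM in RTT TAM_cycling. Its intervals overlapped between the libraries in TAM_H2Ab1 (93.9 and 86.0 CPM, 207 and 31 UMIs) and TAM_Spp1 (15.6 and 14.9 CPM, 16 and 65 UMIs). They also overlapped in Macro (11.5 and 11.7 CPM, 8 and 2 UMIs) and TAM_C1q (43.7 and 22.9 CPM, 6 and 418 UMIs), where the few UMIs do not show equal levels. Of 9 transcription factors Pparg (-2.62) and Ppard (-1.22) were lower, and 0 higher, with Maf at 0.06. The list medians ran from -0.38 (shedding and inhibition) to 0.25 (other apoptotic-cell receptors).

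**Figure D5:**
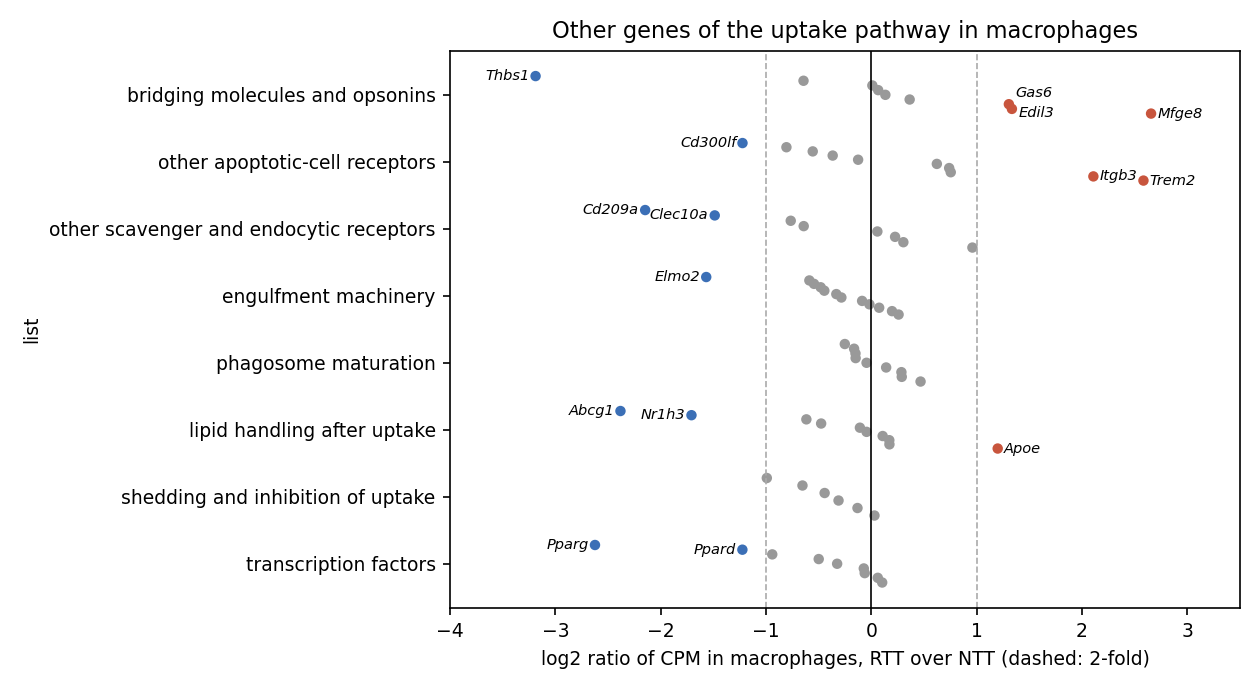
Each point is 1 gene with at least 200 UMIs in macrophages, the vertical axis lists the 8 lists and the horizontal axis is the log2 ratio of CPM, RTT over NTT. Red points are at least 2-fold higher (6 genes, Mfge8 and Trem2 the farthest), blue points at least 2-fold lower (9 genes, Thbs1 the farthest) and grey points between.

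In monocytes 57 of the listed genes had enough UMIs, and 3 were higher and 5 lower, beside 2.97% and 6.74% of all genes tested in monocytes. The higher ones were Trem2 (2.15), Mgl2 (3.10) and Apoe (1.12). Of the lower ones 2 were genes of lipid handling. The others were 1 bridging molecule or opsonin, 1 gene of shedding and inhibition and 1 transcription factor. RTT monocytes include the C1q-positive Infl_Mono cells given above, whose part in these ratios was not tested. Maf stood at 236 and 284 CPM in NTT and RTT monocytes (0.27).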

How the data were processed

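Single-cell RNA from 2 libraries, NTT and RTT, was counted by the authors with Cell Ranger 6.1.1 on the mm10 reference, with filters on genes per cell (over 1000) and on mitochondrial and ribosomal reads. The authors named populations on a batch-corrected map built with other experiments and kept genes shared by these. The deposited counts are raw UMIs of 12584 genes in 7815 cells, and the matrix sums equalled the deposited totals in all 7815 cells. The libraries share 7 barcodes. No doublet caller was run, and none is named in the sources used here.

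UMIs were summed per library and class or population and scaled to CPM. The members, lists and classes were chosen with earlier results of these data known. Intervals are exact 95% Poisson, Clopper-Pearson or binomial intervals. A count of 0 was set to 3 counts per library. Shares of cells were taken after thinning to 2000 UMIs per cell, leaving out 107 NTT and 63 RTT shallower cells. Cells are not replicates, so no p-value is given. Named genes were the 7 receptors, 8 fixed genes, the 3 most alike genes per receptor and, per list, up to 4 genes past 2-fold in macrophages; Mgl2 was added after its value was seen. Of the genes this rule names, 2 are not reported here. Python 3.11.15, numpy 2.4.6, scipy 1.17.1, R 4.3.3, and, for scaling factors, edgeR 4.0.16 and DESeq2 1.42.0 were used. The ratio script was tested on simulated data.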

Additional observations from a re-analysis of the deposited data

Results flagged for a closer look

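Mrc1, Msr1 and Axl lay on opposite sides of 0 in different populations, with intervals that excluded 0 on each side. The log2 ratio of Mrc1 in Infl_Mono (1.65) was 2.44 above that in TAM_Spp1 (-0.79). As given above, no direction was read for Mrc1 in TAM_Spp1, where the share of cells with a UMI was higher in RTT. In Infl_Mono the high RTT level of Mrc1 lay in C1q-positive cells, and the other cells held less Mrc1 in RTT than in NTT. The ratio of Msr1 in TAM_cycling (0.84) was 1.64 above that in Monocyte_1 (-0.81). The ratio of Axl in TAM_Spp1 (2.83-fold higher) was 2.68 above that in TAM_cycling (-1.18). These differences were not tested, since each group held 1 library. In RTT Infl_Mono 1 cell held 14.3% of the Mrc1 UMIs, in NTT TAM_cycling 1 cell held 11.96% of the Msr1 UMIs, and in NTT TAM_Spp1, with 23 Axl UMIs, 1 cell held 17.4% of them.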

How the results depend on the processing

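No paired analysis was possible because each group held 1 library, and for the same reason no library could be left out. Over 19 log2 ratios, 192 values under alternatives were computed, of which 187 kept their sign and 182 their side of the 2-fold limit. Of the 192 values, 54 lay outside the counting interval of the main value. Over all cells the number of genes 2-fold lower was 1 with cells thinned to 2000 UMIs, where 5 genes had enough UMIs. In macrophages the number lower was 1 by the mean of per-cell CPM, and without Macro, chosen after seeing the data, 2 were higher and 1 lower. A further setting took all cells with at least 5 C1q UMIs, whatever their population (1338 NTT and 3745 RTT cells), and there 2 were higher. Of those NTT cells 671 were Monocyte_1, so that this setting is not a check within macrophages. In monocytes 0 were higher after thinning, 2 with no minimum count, and without C1q-positive cells, also added later, 0 were higher and 2 lower. In dendritic cells 0 were higher by the mean of per-cell CPM, after thinning (0 genes with enough UMIs), under TMM scaling, under DESeq2 scaling and without C1q-positive cells, while with no minimum count 3 were higher and 1 lower. The other 62 counts stayed within 1.5 times. The part of the Mertk difference from population shares was -18.3% with RTT shares and 71.9% with NTT shares as weights; that of Cd163 ran from -667% to -25.9%, that of Mrc1 from 95.9% to 184% and that of Stab1 from 32.5% to 70.9%. Of the 21 most alike genes, 7 were named again by Spearman correlation and 2 from RTT profiles alone. Thinning to 1000 UMIs, or none, moved 50 of 56 shares of cells out of their interval. Where no value is given for a cause, the cause was not tested. Intervals cover counting error only, ratios from under 200 UMIs were not counted as 2-fold, and levels given from fewer UMIs are loose.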

Other observations

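Populations with under 50 cells in a library were outside the comparisons. RTT TAM_H2Ab1, 36 cells, held 394 CPM of Mrc1, 117 of Stab1, 133 of Folr2 and 94.4 of Axl, beside 458, 43.1, 45.8 and 189.6 CPM in the 169 NTT cells of that name. RTT Macro, 26 cells, held 1344 CPM of Mrc1, 581 of Folr2 and 153 of Cd163, and 1 cell held 88.5% of those Cd163 UMIs and 1 cell 56.6% of the Folr2 UMIs. In Myofibrobl, which carried fibroblast markers (summed 4194 CPM in 14 NTT cells, 3855 CPM in 24 RTT ones) despite the CD45 sort, Axl stood at 336 and 182.5 CPM (42 and 64 UMIs) and Cd163 at 0 UMIs. Axl was found there in 66.7% of NTT and 38.1% of RTT cells at 2000 UMIs.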
